A study of Homo sapiens with 6 samples.

Results

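Epithelial cells secrete a small group of proteins that act on microbes, on proteases or in the acute-phase reaction, and 7 genes of this kind were followed here across all libraries of the series. The set was given as a list of symbols. It holds LCN2 (lipocalin 2, which withholds iron from bacteria by binding their siderophores), the protease inhibitors SLPI and PI3 (elafin), the serum amyloid A genes SAA1 and SAA2, the beta-defensin DEFB1, and ELF3, an ETS-family transcription factor of epithelia. All 7 were among the 20802 genes measured, and no member was dropped.

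The study measured the transcriptome of MCF10A, a benign and established line of human breast epithelium, to ask what excess GIRK1 does to such cells. GIRK1 is a subunit of G-protein-gated inwardly rectifying potassium channels and is encoded by KCNJ3. There were 6 libraries, labelled as 2 replicates each of untransfected wild-type cells (WT), of cells stably carrying the eGFP control plasmid (eGFP) and of cells stably overexpressing human GIRK1 (GIRK1). The assay amplifies 1 short cDNA segment per gene and counts the reads on it, so levels are given as RPM, the reads of a gene scaled to a library total of 1000000 reads, and are compared between libraries for the same gene only. The eGFP and GIRK1 lines both carry the linearised pIRES2eGFP plasmid, without or with the human GIRK1 coding sequence, and both went through selection in G418 and sorting for green fluorescence, which the wild-type cells did not. The labels name no further treatment, and by the study's methods MCF10A cells grew in MEBM, a mammary epithelial medium, with SingleQuots supplements. The study writes of a single eGFP line and a single GIRK1 line of MCF10A, and the labels do not say how the replicates were made from them. The p-values therefore measure the spread between these libraries, which may be technical. GIRK1 overexpression and other differences between the derived lines cannot be told apart. In the names of the deposited data the GIRK1 libraries carry a tag that the other 4 libraries do not. Its meaning is not given in the sources used here; were it a run on the sequencer, condition and run cannot be told apart.

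Depth differed between libraries. The WT libraries held 2506120 and 16040556 reads, the eGFP libraries 5126930 and 10233974, and the GIRK1 libraries 11107309 and 10346572. A count of 3 reads, taken as the smallest level the depth can show, corresponded to 1.20 RPM in WT replicate 1, to 0.585 RPM in eGFP replicate 1 and to between 0.187 and 0.293 RPM in the others. Intervals and floors below cover counting error only, since reads made by PCR without molecular identifiers are not independent molecules.

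KCNJ3 was examined first, as a check of the labels. It had 217 and 355 RPM in the GIRK1 libraries and 0 reads in both eGFP libraries and in WT replicate 2. The library labelled WT replicate 1 had 48 KCNJ3 reads, 19.2 RPM, against its label. That library also stood apart in its markers of cell type. The basal keratin KRT5, a defining marker of MCF10A, was at 0.798 RPM there and between 3862 and 10660 RPM in the other 5 libraries, while the oestrogen receptor ESR1 and the oestrogen-induced trefoil peptide TFF1, both luminal, were at 192 and 5106 RPM there and at 0 reads elsewhere. It was therefore kept out of the comparisons reported and entered only the fit of all 6 libraries, tried as an alternative, and its values are given apart. In the other 5 libraries 11 of 12 basal markers had reads, and TP63 had 0 reads in all 6 libraries.

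In mucosae and skin, secreted antimicrobial and acute-phase proteins are part of the first barrier against infection. Many of their genes are induced by inflammatory cytokines such as IL-1, IL-6 and IL-17 through transcription factors of the NF-kB, C/EBP and STAT3 families. In the mammary gland LCN2, SLPI and the serum amyloids are best known from inflammation, involution and tumours, and ELF3 is known as an epithelial factor that responds to the same cytokines.

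LCN2 rose in the GIRK1 libraries against the eGFP libraries, and it was the member with the clearest difference. It had 38.9 RPM (432 reads) and 34.8 RPM (360 reads) in the GIRK1 libraries, 3.71 RPM (19 reads) and 4.01 RPM (41 reads) in the eGFP libraries and 7.29 RPM (117 reads) in WT replicate 2. The GIRK1 libraries lay close together and far above every control, the lower of them being 4.77 times the highest control. Their exact (Clopper-Pearson) 95% intervals ran from 35.3 to 42.7 RPM and from 31.3 to 38.6 RPM, whereas that of WT replicate 2 ended at 8.74 RPM and those of the eGFP libraries at 5.79 and 5.43 RPM.

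The mean was 36.8 ± 2.90 RPM (SD, n = 2) in GIRK1 cells and 3.86 ± 0.212 RPM (SD, n = 2) in eGFP cells, a ratio of 9.55. In edgeR's quasi-likelihood test over the 5 libraries the log2 fold change against eGFP was 3.21 with a standard error of 0.27, and the Benjamini-Hochberg adjusted p over all 11779 genes tested was 0.00374. LCN2 ranked 108 of 11779 by the size of its rise. The study already names LCN2 among the genes of its interferon-γ cluster that rose most in GIRK1 cells. Against WT replicate 2 the level was 5.05 times as high and the log2 fold change 2.36 with a standard error of 0.32, but the adjusted p in edgeR was 0.0565, which misses the threshold of 0.05. The WT arm of that comparison was 1 library, whose spread was assumed to be that of the other groups, and both comparisons use the same GIRK1 libraries.

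Among all genes tested, 0.756% were called higher in GIRK1 than in eGFP cells and 1.6% were called in either direction. LCN2 was the 1 member called of the 4 that could be tested (LCN2, SLPI, PI3 and SAA1). Against WT replicate 2, 0 members were called, where 0.195% of all genes were called higher and 0.229% in either direction. At an unadjusted p under 0.05 the count was 1 member against WT replicate 2, again LCN2, and DESeq2 also called it there. At that unadjusted threshold 8.13% of all genes were higher and 10.7% lower against eGFP, and 3.76% were higher and 3.62% lower against WT replicate 2. DESeq2 called 5.75% of all genes against eGFP and 1.09% against WT replicate 2. The study's own rule asks for a difference in mean RPM of at least 2-fold with an SD below 0.7 of the mean in each group. It took in 8.79% of the 14893 genes with a read in the eGFP or GIRK1 libraries, and 1 member, LCN2. A gene with 0 reads in both libraries of a group, such as KCNJ3, was not called, a condition added here. The median log2 fold change of the 4 tested members was 0.00 against eGFP and 0.67 against WT replicate 2, and that of all genes tested was 0.02 and 0.01.

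**Figure D1:**
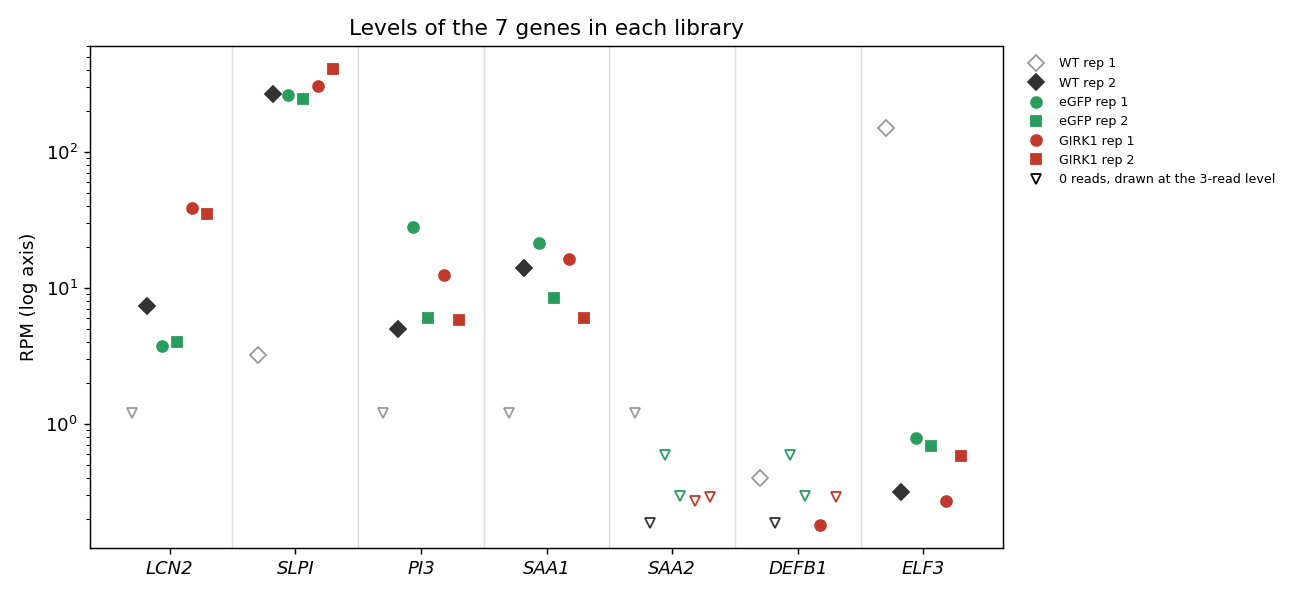
Level of each of the 7 genes in each of the 6 libraries, in RPM on a log axis; open triangles mark libraries with 0 reads and are drawn at the level of 3 reads. The GIRK1 libraries (red) lie above all controls for LCN2 and less far above them for SLPI, are mixed with the controls for PI3 and SAA1, and WT replicate 1 (open grey) stands apart with low SLPI and high ELF3.

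LCN2 lies on chromosome 9 from 128149071 to 128153455 on the plus strand (GRCh38, GENCODE), and its amplicon covers bases 156 to 259 of transcript NM_005564. The 250 bases before its RefSeq start site (GRCh38.p14, chr9:128149203-128149452, plus strand) are shown because LCN2 is the member that moved. They were searched for binding motifs of the ETS, NF-kB and C/EBP families, whose genes are described further on. An AP-1 motif was searched as well, but no AP-1 gene is on the lists, and no STAT3 motif was searched.

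LCN2: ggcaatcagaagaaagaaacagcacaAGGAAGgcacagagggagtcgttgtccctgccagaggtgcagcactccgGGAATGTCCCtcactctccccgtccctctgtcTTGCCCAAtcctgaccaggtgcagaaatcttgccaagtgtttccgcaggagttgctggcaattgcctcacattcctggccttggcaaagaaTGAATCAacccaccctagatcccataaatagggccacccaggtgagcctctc

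The capitals mark, from 5′ to 3′, matches to AGGAAG (a core bound by ETS factors), to the 10-base NF-kB motif (here on the minus strand), to TTGCNNAA (C/EBP) and to TGANTCA (AP-1). Both strands were searched, and the matches do not overlap. Windows of the same length before 35116 RefSeq starts held AGGAAG in 28.7% of cases, the NF-kB motif in 5.21%, TTGCNNAA in 9.05% and TGANTCA in 6.57%. A match describes the letters and does not show that a factor binds there. Promoter sequences were matched for 2 of the 7 members, LCN2 and ELF3. The same window of ELF3 also held the NF-kB motif, once and on the minus strand (GGAAATCCCC), and none of the other 3 motifs.

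SLPI and PI3 encode inhibitors of neutrophil elastase that share the WAP fold, and they lie on the same arm of chromosome 20 (SLPI from 45252239 to 45254564 on the minus strand, PI3 from 45174876 to 45176544 on the plus strand). The genes are separated by 75694 bases, yet their levels followed different orders across the libraries.

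SLPI had 308 and 411 RPM in the GIRK1 libraries, 264 and 245 RPM in the eGFP libraries and 266 RPM in WT replicate 2. The GIRK1 libraries were the higher ones and did not overlap the controls, with the lower GIRK1 library at 1.16 times the highest control, while the GIRK1 libraries themselves differed by 1.33 times. The log2 fold change was 0.46 against eGFP (standard error 0.24, edgeR adjusted p = 0.351) and 0.46 against WT replicate 2 (standard error 0.30, edgeR adjusted p = 0.815), so neither difference passed the threshold. Between 1355 and 4267 reads lay behind each of these values.

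PI3 had 12.4 and 5.80 RPM in the GIRK1 libraries, 27.9 and 5.96 RPM in the eGFP libraries and 4.99 RPM in WT replicate 2. Replicate 1 was higher than replicate 2 in both transfected lines, and the spread inside the eGFP line, 4.68 times, was wider than the ratio of the group means, 0.538. The log2 fold change was −0.93 against eGFP (standard error 0.72, edgeR adjusted p = 0.513) and 0.89 against WT replicate 2 (standard error 0.91, edgeR adjusted p = 0.899). Without GIRK1 replicate 1 it was −1.58 and 0.26, and without GIRK1 replicate 2 −0.51 and 1.32. Its sign against eGFP rested on eGFP replicate 1, because without that library the log2 fold change became 0.63, and without eGFP replicate 2 it was −1.71 with an edgeR adjusted p of 0.00723, in a fit with 1 eGFP library that called 25.5% of all genes.

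**Figure D2:**
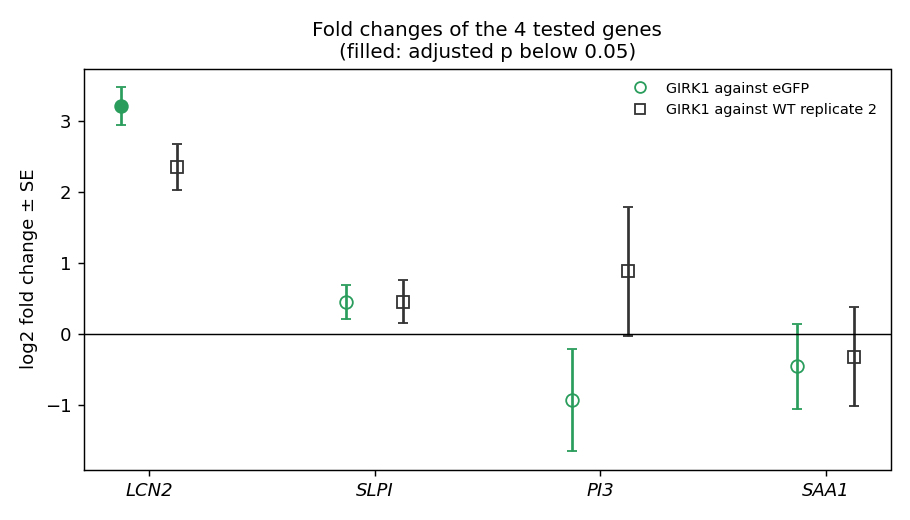
Log2 fold changes with standard errors of the 4 members that could be tested, for GIRK1 against eGFP (green circles) and against WT replicate 2 (black squares); filled symbols have an adjusted p below 0.05. The filled symbol is LCN2 against eGFP, at 3.21; SLPI is at 0.46 in both comparisons, and the intervals of PI3 and SAA1 are wide.

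The serum amyloid A proteins are acute-phase apolipoproteins made in the liver and by inflamed epithelia. SAA1 had 16.4 and 5.99 RPM in the GIRK1 libraries, 21.5 and 8.40 RPM in the eGFP libraries and 14.1 RPM in WT replicate 2. The groups overlapped, and in each transfected line replicate 1 was above replicate 2, by 2.73 times for GIRK1 and 2.55 times for eGFP. The log2 fold change of SAA1 was −0.45 against eGFP (standard error 0.60, edgeR adjusted p = 0.709) and −0.31 against WT replicate 2 (standard error 0.70, edgeR adjusted p = 0.962). Without eGFP replicate 1 the sign against eGFP turned, to a log2 fold change of 0.43, and without GIRK1 replicate 2 it was 0.08 against eGFP and 0.22 against WT replicate 2.

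SAA2 had 0 reads in all 6 libraries, which allows up to 1.20 RPM in WT replicate 1 and up to 0.187 RPM in WT replicate 2. SAA1 (chromosome 11, 18266174 to 18269977, plus strand) and SAA2 (chromosome 11, 18239223 to 18248643, minus strand) are close copies. Over 366 coding bases (GENCODE transcripts on GRCh38) they differ at 11, an identity of 97.0%, and 186 bases in a row are identical. The stretch from coding base 224 to 323, counted from the start codon, is shown because it holds 10 of the differences. Capitals mark the bases that differ.

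SAA1: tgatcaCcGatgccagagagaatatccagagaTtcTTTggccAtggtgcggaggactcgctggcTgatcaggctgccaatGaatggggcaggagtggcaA

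SAA2: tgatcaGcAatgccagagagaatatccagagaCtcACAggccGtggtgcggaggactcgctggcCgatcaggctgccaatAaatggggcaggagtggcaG

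How the counting treated reads that fit both copies is not given in the sources used here. The split between SAA1 and SAA2 is therefore uncertain, and the SAA1 values may hold reads of either copy. The SAA1 amplicon covers bases 187 to 271 of transcript NM_199161. Where that lies relative to the stretch shown was not determined, so the assay may not have read the bases that differ. The SAA2 amplicon lies on transcript NM_001127380, whose coding sequence has 249 bases, so SAA2 was read on a shorter isoform than the one aligned here.

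DEFB1 encodes the beta-defensin that many epithelia make constitutively. It had 2 reads in GIRK1 replicate 1 and 0 in GIRK1 replicate 2, in both eGFP libraries and in WT replicate 2. Those 2 reads correspond to 0.18 RPM, with an exact 95% interval from 0.0218 to 0.650 RPM, below the 3-read level of that library. No difference in DEFB1 was detectable at this depth, and it was not tested.

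ELF3, the transcription factor of the set, was nearly silent in the 5 libraries compared and did not follow LCN2. It had 3 and 6 reads in the GIRK1 libraries (0.27 and 0.58 RPM), 4 and 7 in the eGFP libraries (0.78 and 0.684 RPM) and 5 in WT replicate 2 (0.312 RPM). All 5 libraries were at or a few reads above the floor, and the exact 95% interval of GIRK1 replicate 2, from 0.213 to 1.26 RPM, held both eGFP values. With 25 reads in all over these libraries ELF3 was not tested. The library labelled WT replicate 1 had 375 ELF3 reads, 149.6 RPM, which is 192 times the highest value elsewhere.

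The same library was low in the secreted members. It had 8 SLPI reads (3.19 RPM), against 245 RPM or more in every other library. LCN2, PI3 and SAA1 had 0 reads there, which allows up to 1.20 RPM, whereas the lowest values in the other 5 libraries were 3.71 RPM for LCN2, 4.99 RPM for PI3 and 5.99 RPM for SAA1. DEFB1 had 1 read there.

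**Figure D3:**
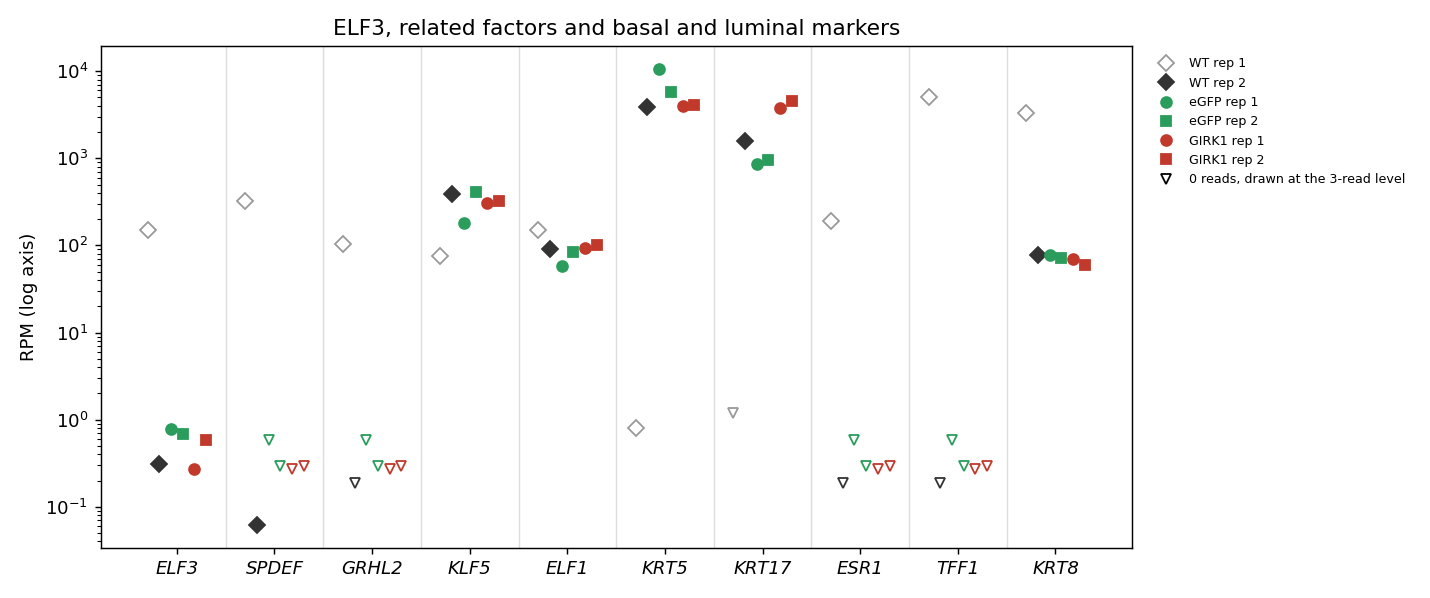
RPM on a log axis for ELF3, related epithelial factors, and basal (KRT5, KRT17) and luminal (ESR1, TFF1, KRT8) markers in each library; open triangles mark 0 reads at the 3-read level. The library labelled WT replicate 1 (open grey) is high for ELF3, SPDEF and GRHL2 and for the luminal markers and low for the basal keratins, with the other 5 libraries on the opposite side in each of these.

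The close relatives and partners of ELF3 were examined as a list of 12 epithelial factors, of which 8 could be tested. By edgeR and by DESeq2, 0 were called in either comparison. At an unadjusted p under 0.05, 0 of 8 were higher and 1 lower against eGFP (8.13% and 10.7% of all genes), and 1 was higher and 1 lower against WT replicate 2 (3.76% and 3.62%). These genes were named after their values were seen. The lower one in both comparisons was EHF, an epithelial ETS factor closely related to ELF3, with 1.17 and 0.58 RPM (13 and 6 reads) in the GIRK1 libraries, 2.34 and 3.52 RPM in the eGFP libraries and 5.61 RPM in WT replicate 2. All 3 controls lay above both GIRK1 libraries, with log2 fold changes of −1.78 and −2.64 and edgeR adjusted p values of 0.162 against eGFP and 0.304 against WT replicate 2. The higher one against WT replicate 2 was GRHL3, with 5.13 and 9.09 RPM in GIRK1, 3.32 and 6.65 RPM in eGFP and 2.56 RPM in WT replicate 2 (edgeR adjusted p = 0.661). KLF5, a zinc-finger factor of epithelia, had 306 and 325 RPM in the GIRK1 libraries, 180 and 411 RPM in the eGFP libraries and 388 RPM in WT replicate 2. ELF1, an ETS factor with a wide distribution, had 93.5 and 99.7 RPM in the GIRK1 libraries, 57.3 and 84.6 RPM in the eGFP libraries and 89.9 RPM in WT replicate 2. ELF4 lay between 20.9 and 27.3 RPM in all 5. Without eGFP replicate 2, KLF5 and ELF1 passed as higher against eGFP (edgeR adjusted p = 0.0205 and 0.0332), but in that fit the eGFP arm is 1 library and 25.5% of all genes were called. The median log2 fold change of the 8 was 0.33 against eGFP and 0.24 against WT replicate 2.

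Among the regulators known to induce these genes, 12 of 13 NF-kB, C/EBP and STAT3 genes could be tested, and edgeR and DESeq2 called 0 in either comparison. At an unadjusted p under 0.05, 1 of 12 was higher and 4 were lower against eGFP (8.13% and 10.7% of all genes), and 0 were higher and 1 lower against WT replicate 2 (3.76% and 3.62%). The higher one was STAT3, and the lower ones, named after their values were seen, were the subunit genes NFKB1, NFKB2 and RELB and the NF-kB cofactor NFKBIZ, with log2 fold changes from −0.75 to −0.57 and edgeR adjusted p values from 0.141 to 0.214 against eGFP. RELB was the lower one against WT replicate 2. STAT3, the factor downstream of IL-6-type cytokines, had 192 and 160 RPM in the GIRK1 libraries, 107 and 133 RPM in the eGFP libraries and 149.8 RPM in WT replicate 2 (edgeR adjusted p against eGFP = 0.258). NFKBIA, the NF-kB inhibitor that is itself an NF-kB target, had 162 and 125 RPM in GIRK1, 244 and 179 RPM in eGFP and 135 RPM in WT replicate 2 (edgeR adjusted p against eGFP = 0.277). RELA, an NF-kB subunit, had 99.2 and 110.6 RPM in GIRK1, 141.2 and 122 RPM in eGFP and 120 RPM in WT replicate 2 (edgeR adjusted p against eGFP = 0.399). Without eGFP replicate 2, STAT3 passed as higher (edgeR adjusted p = 0.0422) and NFKBIA as lower (edgeR adjusted p = 0.00833), again with 1 library in the eGFP arm and 25.5% of all genes called. The median log2 fold change of the 12 was −0.47 against eGFP and −0.16 against WT replicate 2.

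The cytokines that induce these genes, with their receptors, gave 16 testable genes of 24, and 2 fell against eGFP while 0 rose, where 0.84% of all genes were called lower and 0.756% higher. At an unadjusted p under 0.05 there were 1 higher and 2 lower in each comparison (8.13% and 10.7% of all genes against eGFP, 3.76% and 3.62% against WT replicate 2). The higher gene in both was IL6R, the IL-6 receptor, named after its values were seen, with 29.5 and 26.3 RPM in GIRK1, 12.3 and 15.8 RPM in eGFP and 15.6 RPM in WT replicate 2 (edgeR adjusted p against eGFP = 0.120). The genes that fell were the IL-1 cytokines. IL1B had 4.50 and 3.77 RPM in the GIRK1 libraries, 190 and 99.4 RPM in the eGFP libraries and 17.1 RPM in WT replicate 2, a log2 fold change of −5.18 against eGFP (standard error 0.43, edgeR adjusted p = 0.00372). IL1A had 30.0 and 34.2 RPM in the GIRK1 libraries, 85.2 and 200.02 RPM in the eGFP libraries and 124 RPM in WT replicate 2, a log2 fold change of −2.17 (standard error 0.38, edgeR adjusted p = 0.0460). For both cytokines every control library lay above both GIRK1 libraries. Against WT replicate 2 neither was called, with log2 fold changes of −2.02 and −1.93 and edgeR adjusted p values of 0.292 and 0.291, while DESeq2 called both there (1.09% of all genes called). The call of IL1A was held in 9 of 14 distinct alternative analyses, and without WT replicate 2, which leaves only the libraries compared, its edgeR adjusted p was 0.0511. Its log2 fold change against eGFP was −1.51 without eGFP replicate 2 and −2.62 without eGFP replicate 1. The call of IL1B was held in 12 of 14, the exceptions being the 3 controls pooled (−4.67, edgeR adjusted p = 0.0907) and the fit of all 6 libraries, and its log2 fold change was −4.56 without eGFP replicate 1 and −5.62 without eGFP replicate 2. LCN2 was thus high in the libraries in which IL1A and IL1B were low, and whether the levels are linked was not tested.

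Other acute-phase proteins numbered 20, of which 7 could be tested, and 1 rose against eGFP and 0 fell, where 0.756% of all genes were called higher. The gene that rose was CFB, complement factor B of the alternative pathway, with 107 and 72.7 RPM in the GIRK1 libraries, 6.63 and 15.3 RPM in the eGFP libraries and 30.3 RPM in WT replicate 2. The GIRK1 libraries did not overlap the controls. The log2 fold change was 2.97 against eGFP (standard error 0.39, edgeR adjusted p = 0.0212) and 1.59 against WT replicate 2 (standard error 0.47, edgeR adjusted p = 0.451). The call against eGFP was held neither with the 3 controls pooled (2.32, edgeR adjusted p = 0.0817) nor in the fit of all 6 libraries, and without eGFP replicate 2 the log2 fold change was 3.65. At an unadjusted p under 0.05, 3 of the 7 were higher and 1 lower against eGFP (8.13% and 10.7% of all genes), and 1 was higher and 0 lower against WT replicate 2 (3.76% and 3.62%). Against eGFP these were CFB, the protease inhibitor SERPINA3 and the fibrinogen chain FGG, and in the other direction SERPINA1, the inhibitor alpha-1-antitrypsin. SERPINA1 had 2 and 1 reads in GIRK1, 10 reads in each eGFP library and 5 reads in WT replicate 2 (edgeR adjusted p against eGFP = 0.154). FGG had 1.71 and 1.35 RPM in GIRK1, 0.195 and 0.391 RPM in eGFP and 2.31 RPM in WT replicate 2 (edgeR adjusted p against eGFP = 0.181), so that WT replicate 2 lay above both GIRK1 libraries. These genes and the complement protein C3 were named after their values were seen, and CFB was the 1 called. C3 had 188 and 57.1 RPM in GIRK1, 245 and 226 RPM in eGFP and 305 RPM in WT replicate 2, and SERPINA3 had 73.6 and 55.2 RPM in GIRK1, 13.7 and 39.4 RPM in eGFP and 60.5 RPM in WT replicate 2. The median log2 fold change of the 7 was 0.97 against eGFP and −0.56 against WT replicate 2.

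Of 28 other secreted antimicrobial proteins 27 were measured, 16 had 0 reads in the 5 libraries and 4 could be tested. By edgeR 0 were called, DESeq2 called S100A8 and S100A9 lower against eGFP (5.75% of all genes called) and S100A9 lower against WT replicate 2 (1.09%), and at an unadjusted p under 0.05 there were 3 of 4 lower against eGFP (S100A9, S100A8 and RNASE7; 10.7% of all genes) and 2 lower against WT replicate 2 (S100A9 and S100A8; 3.62%). S100A9 and S100A8 form calprotectin, which withholds metal ions from microbes. S100A9 had 26.7 and 11.7 RPM in the GIRK1 libraries, 137.9 and 53.9 RPM in the eGFP libraries and 97.6 RPM in WT replicate 2, a log2 fold change of −2.38 against eGFP (standard error 0.56, edgeR adjusted p = 0.0990). S100A8 had 11.2 and 4.45 RPM in GIRK1, 52.5 and 19.6 RPM in eGFP and 31.0 RPM in WT replicate 2, with a log2 fold change of −2.26 (standard error 0.60, edgeR adjusted p = 0.123). For both calprotectin subunits all controls lay above both GIRK1 libraries, the opposite order to LCN2. Both passed in some alternatives. With the replicate block the edgeR adjusted p values against eGFP were 0.00110 for S100A9 and 0.00311 for S100A8. That fit called 549 of 11779 genes. Without a filter on low counts S100A9 and S100A8 had edgeR adjusted p values of 9.95e-04 and 0.00326, in a fit that called 5.69% of all genes. Without GIRK1 replicate 1, eGFP replicate 1 or eGFP replicate 2, S100A9 had 0.00646, 0.00754 and 1.06e-04 and S100A8 0.0130, 0.0376 and 2.90e-04, in edgeR fits that called 1.96%, 8.33% and 25.5% of all genes. The size of the change moved with the library left out, to log2 fold changes against eGFP of −3.08, −1.47 and −2.95 for S100A9 and of −3.05, −1.31 and −2.85 for S100A8 in the same order. RNASE7, an antimicrobial ribonuclease of skin, had 7.47 and 8.99 RPM in GIRK1, 20.7 and 15.1 RPM in eGFP and 10.7 RPM in WT replicate 2, and passed without a filter on low counts (edgeR adjusted p = 0.0441, 5.69% of all genes called) and without eGFP replicate 2 (edgeR adjusted p = 0.00510, 25.5%). The median log2 fold change of the 4 was −1.71 against eGFP and −1.31 against WT replicate 2.

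**Figure D4:**
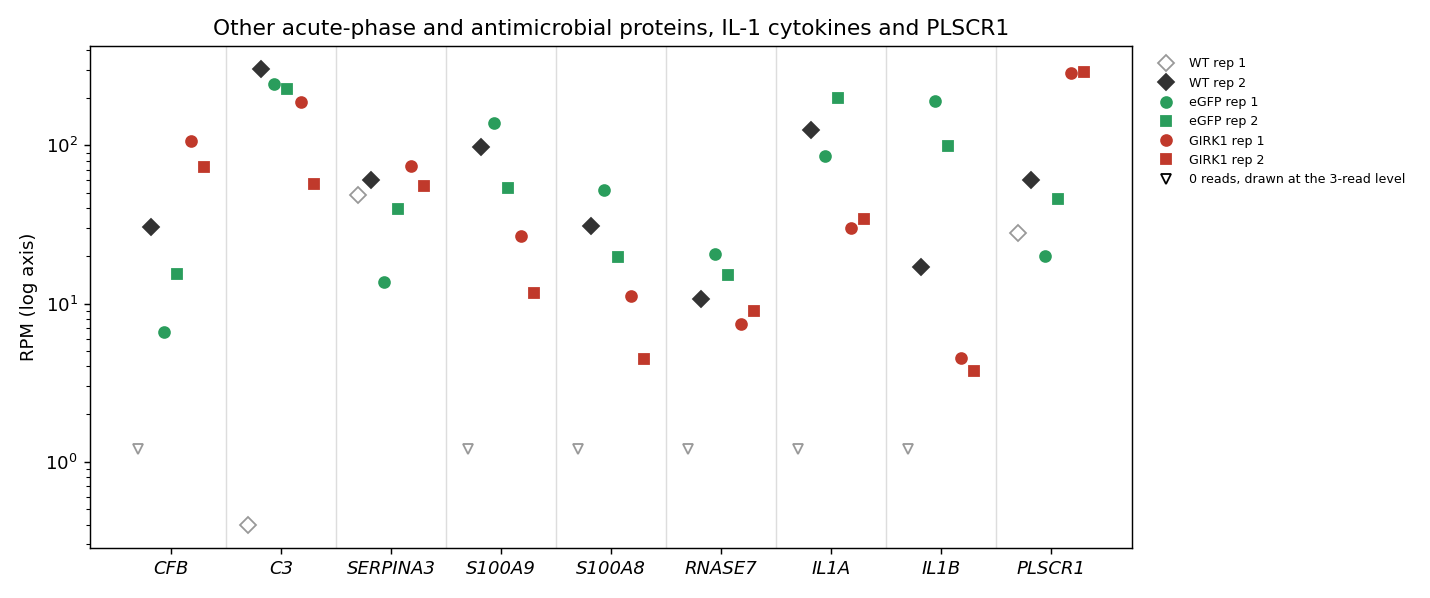
RPM on a log axis in each library for other acute-phase proteins (CFB, C3, SERPINA3), secreted antimicrobial proteins (S100A9, S100A8, RNASE7), IL-1 cytokines (IL1A, IL1B) and PLSCR1; open triangles mark 0 reads at the 3-read level. CFB and PLSCR1 are higher in both GIRK1 libraries (red) than in every control, and S100A9, S100A8, IL1A and IL1B are lower in both.

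The receptors, target proteases and binding partners of the members made a list of 17, with 9 testable, of which 1 rose and 0 fell against eGFP, where 0.756% of all genes were called higher. PLSCR1, a phospholipid scramblase that binds SLPI, had 285 and 291 RPM in the GIRK1 libraries, 20.1 and 45.8 RPM in the eGFP libraries and 60.2 RPM in WT replicate 2. The log2 fold change was 3.09 against eGFP (standard error 0.37, edgeR adjusted p = 0.0142) and 2.28 against WT replicate 2 (standard error 0.46, edgeR adjusted p = 0.213), where DESeq2 called it (1.09% of all genes called). Without eGFP replicate 2 the log2 fold change against eGFP was 3.74. The LCN2 receptor SLC22A17 had 0 reads in both GIRK1 libraries, in eGFP replicate 1 and in WT replicate 2, and 1 read in eGFP replicate 2. At an unadjusted p under 0.05, 4 of the 9 (ANXA2, TXN, TGM2 and SCARB1) were lower against eGFP (10.7% of all genes), none of them past edgeR's adjusted threshold, and DESeq2 called ANXA2 and TXN lower (5.75% of all genes called). Against WT replicate 2 there were 1 higher (PLSCR1) and 2 lower (TGM1 and ANXA2) at the unadjusted threshold (3.76% and 3.62%).

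Markers of cell type were read in the same libraries. Among the basal markers reported here, KRT17 rose and LAMB3 fell against eGFP. The keratin KRT17 had 3800 and 4513 RPM in the GIRK1 libraries, 853 and 952 RPM in the eGFP libraries and 1570 RPM in WT replicate 2 (log2 fold change 2.17 against eGFP, edgeR adjusted p = 0.00764). The laminin-332 chain LAMB3 had 258 and 260 RPM in GIRK1, 1747 and 1790 RPM in eGFP and 768 RPM in WT replicate 2. It fell against eGFP (log2 fold change −2.81, edgeR adjusted p = 0.00301). Against WT replicate 2 neither gene was called. The log2 fold changes there were 1.43 for KRT17 and −1.55 for LAMB3 (edgeR adjusted p = 0.181 and 0.0816). The summed level of the 12 basal markers was 9373 RPM in WT replicate 2, 17408 and 11779 RPM in eGFP and 10679 and 11357 RPM in GIRK1. The 12 luminal markers summed to 1074 RPM in WT replicate 2, 554 and 907 RPM in eGFP and 935 and 860 RPM in GIRK1, with XBP1 or KRT18 the most abundant and ESR1, PGR, TFF1, TFF3 and KRT19 at 0 reads. Of the 7 testable luminal markers edgeR called 0 in either comparison, and 2 were higher and 0 lower at an unadjusted p under 0.05 against eGFP (8.13% and 10.7% of all genes). These were AGR2, with 9.72 and 6.09 RPM in GIRK1, 0.195 and 1.86 RPM in eGFP and 4.12 RPM in WT replicate 2 (log2 fold change 2.71, edgeR adjusted p = 0.113, called by DESeq2), and MUC1, with 65.6 and 30.4 RPM in GIRK1, 22.6 and 19.1 RPM in eGFP and 45.0 RPM in WT replicate 2 (log2 fold change 1.16, edgeR adjusted p = 0.175). Both were named after their values were seen.

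The 8 fibroblast markers summed to 32.0 and 33.5 RPM in the GIRK1 libraries, 10.7 and 8.70 RPM in the eGFP libraries and 14.2 RPM in WT replicate 2. Nearly all of the difference was DCN, the proteoglycan decorin. It had 27.0 and 25.2 RPM in GIRK1, 0.78 and 3.71 RPM in eGFP and 10.2 RPM in WT replicate 2. The log2 fold change was 3.37 against eGFP (edgeR adjusted p = 0.0328) and 1.37 against WT replicate 2 (edgeR adjusted p = 0.661). The call of DCN was held neither with the 3 controls pooled (2.29, edgeR adjusted p = 0.145) nor in the fit of all 6 libraries, and without eGFP replicate 2 the log2 fold change was 4.94. Of the collagens on the list, COL1A2 and COL3A1 had 0 reads in these 5 libraries and COL1A1 had 45 to 83 reads (2.81 to 9.17 RPM). Of the 10 leukocyte markers 6 had 0 reads in these 5 libraries, PTPRC and MPO among them, and CD14 had 7.11 to 21.6 RPM. The leukocyte sum was 35.1 and 31.0 RPM in GIRK1, 45.8 and 44.1 RPM in eGFP and 22.4 RPM in WT replicate 2, with CD68 the most abundant, at 14.9 to 23.8 RPM. The 6 endothelial markers summed to at most 3.71 RPM in any library, with VWF and CDH5 at 0, and TEK or KDR as the most abundant. The part of these markers in the LCN2 result was not tested. In these bulk libraries more LCN2 per cell and more cells with LCN2 cannot be told apart.

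The genes whose pattern across the 5 libraries was most like that of each testable member were found among the 11150 genes whose mean over them reached 10 reads. Likeness was the root-mean-square difference of centred log2(RPM + 0.5) values. For LCN2 they were SATB1 (0.134), SAMD9L (0.236) and IFIT5 (0.264). SATB1 had 4.68 and 4.64 RPM in the GIRK1 libraries, 0 and 0.195 RPM in the eGFP libraries and 0.499 RPM in WT replicate 2, and SAMD9L had 3.33 and 5.12 RPM in GIRK1, 0 reads in both eGFP libraries and 0.374 RPM in WT replicate 2. In every control library both were below the added 0.5 RPM, so their likeness to LCN2 depends on that addition. IFIT5, whose log2 fold change against eGFP was 3.22 beside the 3.21 of LCN2, had 54.1 and 70.8 RPM in the GIRK1 libraries, 5.27 and 7.62 RPM in the eGFP libraries and 9.23 RPM in WT replicate 2, so that, as for LCN2, both GIRK1 libraries lay above all controls and WT replicate 2 above both eGFP libraries. For SLPI they were GNAL (0.00904), AGPAT6 (0.0304) and ZBTB5 (0.0371), for PI3 SEPT5 (0.193), HIST1H3C (0.253) and TNFAIP3 (0.259), and for SAA1 TCEAL8 (0.149), ARHGAP27 (0.163) and RAB20 (0.171). TNFAIP3 had 88.2 RPM in eGFP replicate 1 and between 16.3 and 29.9 RPM in the other 4, so it shared with PI3 the high value of that library. No member was among the 3 nearest genes of another member.

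**Figure D5:**
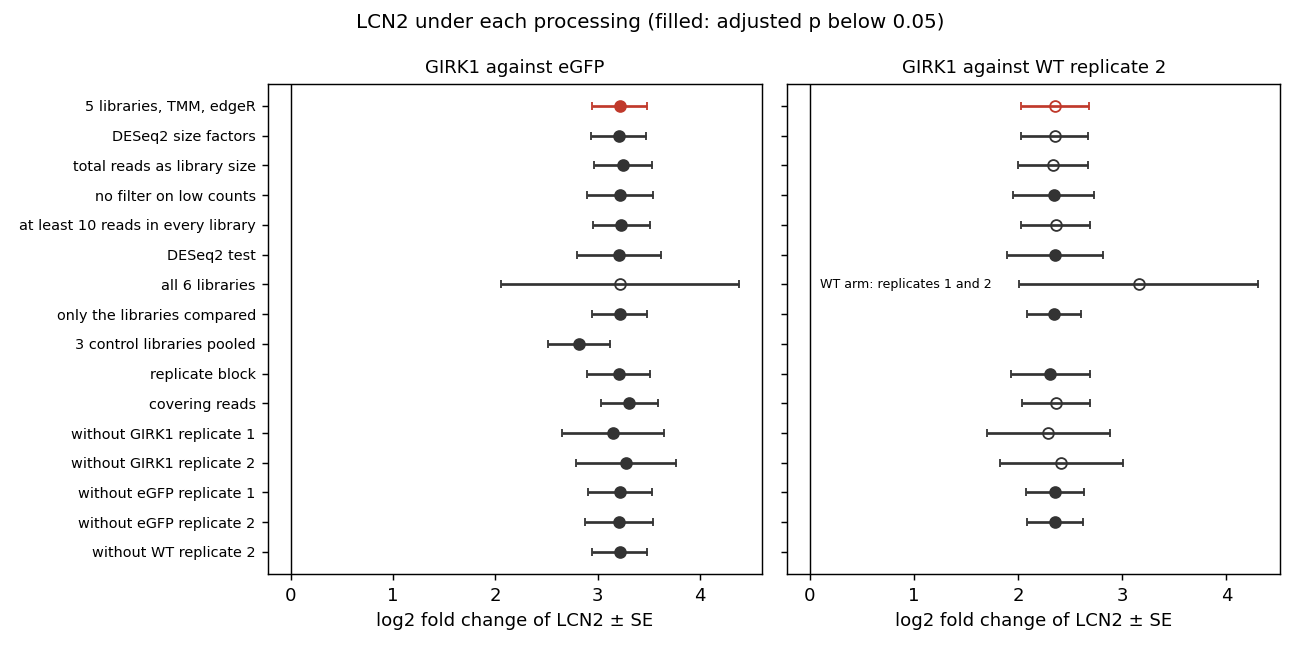
Log2 fold change of LCN2 with its standard error under each way of processing, against eGFP (left) and against WT replicate 2 (right); filled points have an adjusted p below 0.05 and the red point is the analysis reported. Against eGFP the value lies between 3.15 and 3.31 and fails the threshold when all 6 libraries are fitted. With the 3 controls pooled, an arm that also holds WT replicate 2, the value is 2.82. Against WT replicate 2 alone it lies between 2.29 and 2.42, and the fit of all 6 libraries, whose WT arm holds both WT libraries, gives 3.16.

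The call of LCN2 against eGFP was held in 13 of 14 distinct alternative analyses. Its log2 fold change was 2.82 with the 3 controls pooled, an arm that also holds WT replicate 2. In the other alternatives it lay between 3.15 and 3.31. The call was lost in the fit that also took in the library labelled WT replicate 1. There the log2 fold change was 3.22 with an edgeR adjusted p of 0.934, and 0 genes were called (606 at an unadjusted p under 0.05). Against WT replicate 2 alone the log2 fold change of LCN2 lay between 2.29 and 2.42 and passed the threshold in 6 of 12 alternatives. Without eGFP replicate 1 or eGFP replicate 2 it passed, with edgeR adjusted p values of 7.03e-05 and 5.06e-04, in fits that called 4.93% and 3.82% of all genes. In the fit of all 6 libraries the WT arm also holds the library labelled WT replicate 1, and the log2 fold change was 3.16.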

How the data were processed

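The authors amplified cDNA from total RNA with the Ion AmpliSeq Transcriptome kit, sequenced it on an Ion S5 XL, aligned the reads to the kit's human transcript reference in the Ion Torrent suite and deposited, per amplicon, raw read counts and RPM (counts scaled to the library total). The files name no genome build; positions come from GENCODE and promoters from RefSeq, matched by symbol. Spike-in amplicons (10, with 0 reads) were left out. Counts of 5 libraries were fitted with edgeR 4.0.16 in R 4.3.3 (limma 3.58.1; TMM, filterByExpr, glmQLFTest, Benjamini-Hochberg, threshold 0.05); DESeq2 1.42.0 was an alternative. Standard errors were derived from F. The procedure was tested on simulated counts, and the outcome of that test is not reported here.

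Named genes were the members, KCNJ3, from each of 11 other lists the genes called (otherwise the 3 with the highest mean RPM), the 3 genes nearest to each tested member, and each marker list's most abundant gene. A gene that this rule names among the basal markers is not reported here. The members, lists and tests were chosen with earlier results of these data known.

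The alternatives were other normalizations and filters, DESeq2, other sets of libraries, pooled controls, the replicate block, leaving out each replicate, and covering reads, the last chosen after seeing the data.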

Additional observations from a re-analysis of the deposited data

Results flagged for a closer look

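The library labelled WT replicate 1 was kept out of the comparisons reported and entered only the fit of all 6 libraries, an alternative. Several genes had a higher RPM there than in any control library, with exact 95% intervals that did not overlap. ELF3 had 149.6 RPM there and at most 0.78 RPM in the 3 controls. Among the factors listed with it, SPDEF had 325.6 RPM, GRHL2 103.7 RPM, ELF1 150.03 RPM, ELF4 69.4 RPM, GRHL1 32.3 RPM, GRHL3 19.6 RPM and OVOL1 15.96 RPM. Of these, ELF1, ELF4, GRHL3 and GRHL1 were also present in the controls, at up to 89.9, 27.0, 6.65 and 1.37 RPM, while GRHL2 had 0 reads in the controls and SPDEF and OVOL1 at most 0.062 RPM. Other factors on that list went the other way. KLF5 had 76.2 RPM in this library and 180 to 411 RPM in the controls, and EHF had 0 reads here and 2.34 to 5.61 RPM in the controls. KCNJ3, the gene overexpressed in the GIRK1 line, had 19.2 RPM from 48 reads in this library and 0 reads in the 3 controls.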

How the results depend on the processing

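Against eGFP, 188 genes were called in the analysis reported, 865 without a filter, 107 with at least 10 reads in every library, 677 by DESeq2, 0 with all 6 libraries (606 at an unadjusted p under 0.05), 549 with the replicate block, and 158 to 2997 when a replicate was left out (973 without eGFP replicate 1, 2997 without eGFP replicate 2). The members called were 1, and 0 with all 6 libraries and 1 to 2 on leaving out replicates. Against WT replicate 2, 27 genes were called, 133 without a filter, 16 with at least 10 reads, 128 by DESeq2, 0 with all 6 libraries and both WT libraries in the arm (648 unadjusted), 439 with only the libraries compared, 77 with the replicate block, and 34 to 576 on leaving out replicates (64 without GIRK1 replicate 1, 576 and 449 without eGFP replicates 1 and 2). There, 0 members were called, but 1 (LCN2) without a filter, by DESeq2, with only the libraries compared and with the replicate block (log2 fold change 2.31, edgeR adjusted p = 0.0360), and 0 to 1 on leaving out replicates.

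Signs turned for genes that were not called. Against eGFP, leaving out replicates gave log2 fold changes from −1.34 to 0.43 for SAA1 (0.08 without GIRK1 replicate 2, 0.43 without eGFP replicate 1), from −1.71 to 0.63 for PI3, from −0.36 to 0.70 for KLF5 and from −0.050 to 0.20 for ELF4 (for the last 3 the turn came without eGFP replicate 1, for ELF4 also without GIRK1 replicate 2, at −0.041), and pooling the controls gave KLF5 −0.056. Against WT, the fit of all 6 libraries, whose WT arm also holds the library labelled WT replicate 1, gave SAA1 0.57, RNASE7 0.51, KLF5 0.48, ELF1 −0.22 and ELF4 −0.72, and against WT replicate 2 the replicate block gave PI3 −0.068, KLF5 0.037 and NFKBIA −0.14, and leaving out replicates gave SAA1 −1.19 to 0.22 and NFKBIA −0.079 to 0.26. With the replicate block S100A9 and S100A8 were also called lower, with edgeR adjusted p values of 0.00110 and 0.00311 against eGFP and 0.00214 and 0.00741 against WT replicate 2. Of 13 alternatives against WT replicate 2 (12 for DCN), S100A9 passed in 7, IL1B and PLSCR1 in 6, IL1A, KRT17 and LAMB3 in 5, S100A8 in 4, and CFB and DCN in 3. The cause was not tested. The replicate numbers share no stated origin. The correlation of the replicate differences of the eGFP and GIRK1 lines was 0.191 across 9288 genes, which are not independent replicates. The eGFP libraries differed from each other by 2-fold or more in 984 of these genes, and the GIRK1 libraries in 147.

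With 2 libraries a group and 1 in the WT arm, calls depend on how the spread is pooled. Few reads limited ELF3, DEFB1 and SAA2, for which no difference was detectable.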

Other observations

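SAA1 stood out in the direction of its reads. Over all libraries 5.26% of SAA1 reads were forward reads, whereas the median over 9787 genes with at least 200 reads was 48.9%, and 39 of those genes were below 10%. The share of forward SAA1 reads was 0.885% in WT replicate 2, 2.73% and 10.5% in the eGFP libraries and 9.34% and 6.45% in the GIRK1 libraries. LCN2, SLPI and PI3 had 50.7%, 60.8% and 50.8%.

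BPIFB1, a secreted bactericidal/permeability-increasing fold protein of airway and glandular epithelia, had 29 reads (11.6 RPM) in the library labelled WT replicate 1 and 0 reads in the other 5. The LCN2 receptor SLC22A17 had 34 reads (13.6 RPM) there and at most 1 read elsewhere. Both were named after their values were seen.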
